A study of Mus musculus with 12 samples.

Results

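The 7 genes described here are Cd52, Il16, Def6, Il7r, Icosl, Itgb7 and Tspan32, a group of lymphoid-associated and costimulatory genes, read in mouse bone marrow cultures. They were taken by symbol from a table of 658 genes. The list was chosen on levels and group differences already seen in these same libraries, so the differences between the groups are given for the 7 genes as a description, without p-values, and nothing rests on how many of them differ. Cd3g, Cd79a and Vpreb3, genes of T and B lymphocytes named with the list because they were almost absent, serve as a negative reference for level only.

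The libraries were made from wild-type mouse bone marrow mesenchymal stem cells (BMSCs), the plastic-adherent stromal cells of marrow, all in osteogenic induction medium. That medium held ascorbic acid at 50 µM, dexamethasone at 100 nM and β-glycerophosphate at 10 mM over a growth medium with 15% fetal bovine serum, so both groups received a glucocorticoid. The α-asarone group (6 libraries, the agent spelled α-Asaronel in the labels) also received α-asarone, a phenylpropanoid of Acorus oil, and the control group (6 libraries) did not. The sources used here give no dose or time for α-asarone, no number of animals and no step that removed blood cells from the marrow. The series' design text speaks of 6 biological replicates per group but does not state whether each is its own animal or culture. The errors and p-values therefore rest on the variation between the deposited libraries and may not extend to new animals or cultures.

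Lymphoid and costimulatory genes cover several steps by which immune cells sense each other. Icosl is a ligand of the B7 family that engages ICOS on T cells. Il16 encodes a precursor whose cleaved end attracts CD4+ cells, and Il7r encodes the receptor chain shared by interleukin 7 and TSLP, which is needed for lymphocyte development. Itgb7 pairs with α4 or αE integrin in homing to the gut, Tspan32 is a tetraspanin of blood cells, Cd52 is a small GPI-anchored glycoprotein of lymphocytes and monocytes, and Def6 encodes a signalling protein that acts downstream of the T cell receptor. Several of these genes are also transcribed in monocytes, macrophages and dendritic cells.

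The sequences just upstream of the genes differed in their content of CG dinucleotides, which many broadly used promoters hold in high number. They are shown for Icosl, Itgb7 and Def6, which were all lower with α-asarone and whose windows lie wholly or mostly before every annotated transcript start. Capitals mark each CG, the strand is that of the gene, and the bases come from RefSeq on GRCm38.p6, cut where the first annotated transcript begins.
Icosl, chr10:78069118-78069301, plus strand: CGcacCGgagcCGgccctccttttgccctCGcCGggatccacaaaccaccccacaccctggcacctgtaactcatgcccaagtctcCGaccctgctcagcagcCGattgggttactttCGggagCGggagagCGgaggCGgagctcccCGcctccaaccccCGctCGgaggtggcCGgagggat
Itgb7, chr15:102231945-102232185, minus strand: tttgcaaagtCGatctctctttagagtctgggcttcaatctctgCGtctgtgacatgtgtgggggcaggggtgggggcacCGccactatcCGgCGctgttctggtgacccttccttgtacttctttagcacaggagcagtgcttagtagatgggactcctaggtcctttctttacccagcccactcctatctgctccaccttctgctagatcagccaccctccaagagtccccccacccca
Def6, chr17:28207528-28207777, plus strand: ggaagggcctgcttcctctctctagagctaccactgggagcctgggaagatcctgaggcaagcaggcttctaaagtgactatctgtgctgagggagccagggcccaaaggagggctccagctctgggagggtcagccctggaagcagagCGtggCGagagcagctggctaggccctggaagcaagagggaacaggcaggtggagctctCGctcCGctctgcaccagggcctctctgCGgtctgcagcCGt

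Over the full 250 bases before the RefSeq start, Icosl had 23 CG dinucleotides and Def6 6, against a median of 6 over all 32851 promoter entries. Itgb7 had 5, and Tspan32 and Il7r had 1 each. Il16 has 3 entries, with 2, 7 and 3, and Cd52 has no entry in the table, so 6 of the 7 genes could be read. The letters GAGGAA, the core that the myeloid and B cell factor PU.1 recognises, were searched on both strands. They stood in the windows of Def6 and Tspan32, once each, and in 23.3% of all promoter windows of that length. These are matches of letters in short windows and show no binding.

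Transcripts of the 7 genes were present at very different levels. Levels are in TPM (a transcript's share of all transcripts in a library, corrected for length), so genes can be compared on that scale. Cd52 stood highest, with a mean of 87.9 TPM over the 12 libraries and a range from 65.7 to 119 TPM, above 84.2% of the 658 genes. Def6 (mean 26.1 TPM) and Il16 (mean 23.5 TPM) came next, with overlapping ranges of 21.4 to 31.5 and 20.0 to 35.5 TPM. Icosl lay apart on both sides, between 6.33 and 9.88 TPM. Tspan32 (mean 2.50 TPM), Il7r (mean 2.08 TPM) and Itgb7 (mean 1.33 TPM) overlapped one another between 0.579 and 3.86 TPM, so their order does not exceed the spread between libraries.

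Cd3g, a chain of the T cell receptor complex, and Vpreb3, a gene of B cell precursors, had 0 counts in all 12 libraries. Cd79a, the signalling chain of the B cell receptor, had 1 count in all, in control replicate 2, which is 0.099 TPM. By comparison the least covered of the 7 genes, Itgb7, had 231 counts over the same libraries and Il16 had 8573. A count of 0 allows up to 3 counts, in the 12632709 of the table, and covers counting error only.

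**Figure D1:**
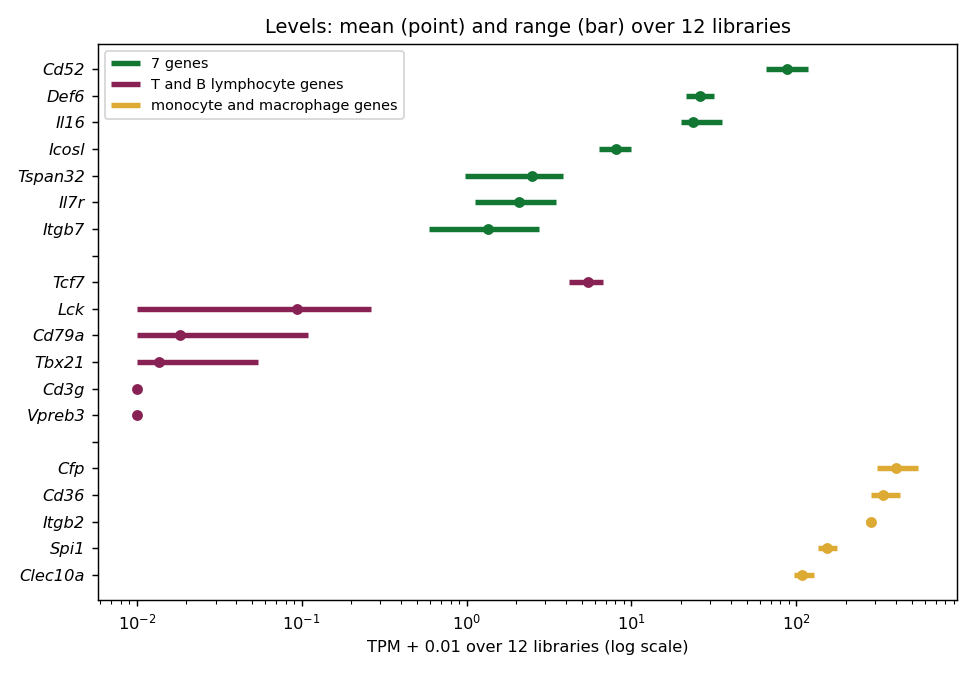
Mean (point) and range (bar) of the level over 12 libraries on a log axis, as TPM + 0.01, for the 7 genes, for 6 genes of T or B lymphocytes and for 5 genes of monocytes and macrophages. Cd3g and Vpreb3 sit at 0 (plotted at 0.01), Cd52 averages 87.9 TPM, and the 5 monocyte and macrophage genes shown all lie above the mean of Cd52.

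Few other lymphocyte genes were in the table. Of 39 genes listed for T and NK cells 4 were in the table, and of 36 for B and plasma cells 2 were. The kinase gene Lck averaged 0.115 ± 0.103 TPM in the α-asarone group against 0.0518 ± 0.0457 in the control group (SD, n = 6 each). The T cell transcription factor gene Tbx21 had means of 0 and 0.00733 TPM in the same order. Neither Lck nor Tbx21 reached 1 TPM in any library, and neither was tested for a difference. These genes were named after their values were seen. Without Tcf7, the 5 lymphocyte genes in the table summed to at most 0.253 TPM in any library. Tcf7, a Wnt effector gene that is not restricted to T cells, was the exception, with 5.22 ± 0.736 TPM in the α-asarone group against 5.68 ± 0.885 in the control group (SD, n = 6 each). Cd3d, Cd3e, Cd4 and Ptprc were not analysed here.

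Transcripts of monocytes and macrophages were abundant beside those of stroma. Of 41 genes listed for monocytes and macrophages 7 were in the table, Cd52 among them, and Itgb2, the β2 chain of leukocyte integrins, had 273 ± 7.29 TPM in the α-asarone group against 293 ± 5.91 in the control group (SD, n = 6 each). None of the 7 was at 0. The stromal collagen gene Col1a1 was at 1304 ± 78.8 and 1852 ± 141 TPM in the same order. The cultures thus held both stromal collagen and leukocyte transcripts, and the share of each cell type was not tested.

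Between the groups, 6 of the 7 genes differed by edgeR's quasi-likelihood test fitted over all genes, with 5 lower and 1 higher with α-asarone. Of all 512 genes tested, 30.3% were called in either direction, 17.4% lower and 12.9% higher, and because the genes were chosen with this comparison known, nothing is read from their share. All 7 passed the filter on low levels, which asks for 1 TPM in 6 or more libraries. Cd52, Il16, Def6, Il7r and Icosl reached it in 12 libraries, Tspan32 in 11 and Itgb7 in 8, of which 5 were controls. The median log2 fold change (α-asarone minus control) of the 7 genes was −0.25, beside 0.00069 over all tested genes. That median too follows from a choice made with this comparison known, so nothing is read from it. In bulk RNA, fewer cells of a type and less RNA per cell cannot be told apart.

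**Figure D2:**
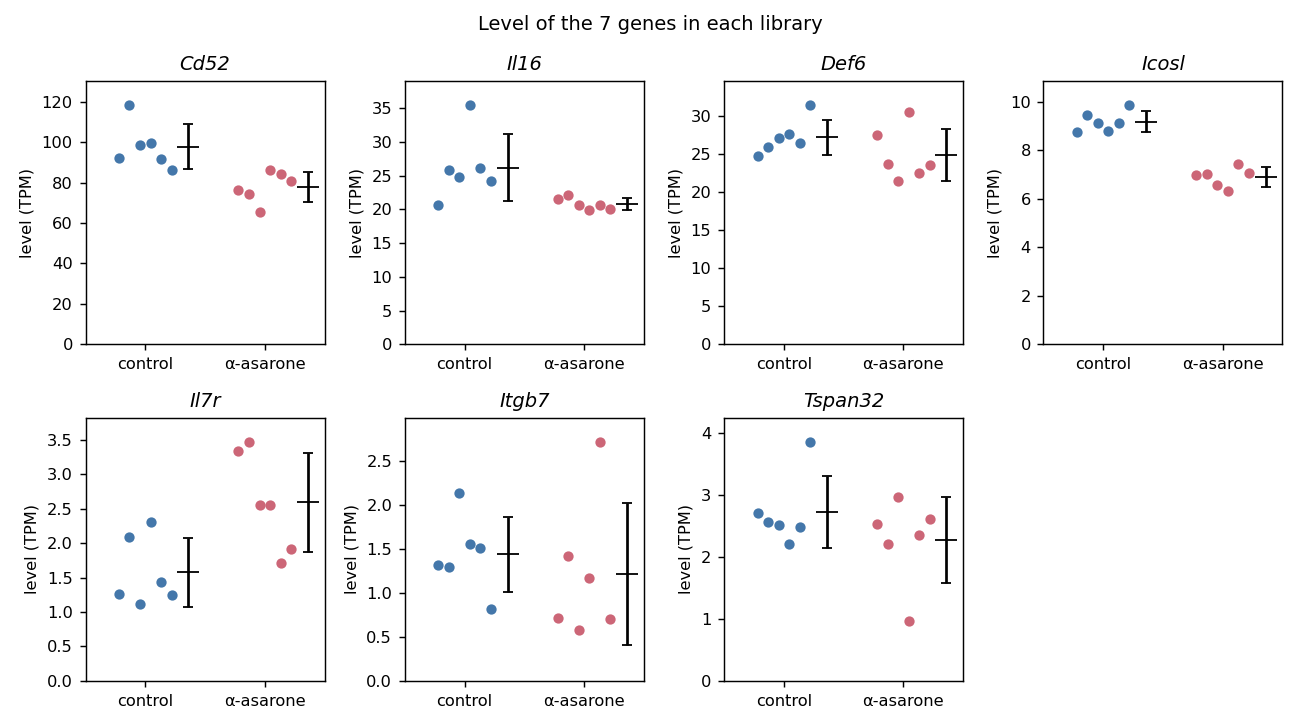
Level in TPM of each of the 7 genes in every library, 6 control and 6 α-asarone, with the mean and SD of each group beside the points. Icosl and Cd52 separate the groups completely (Icosl at most 7.46 TPM with α-asarone and at least 8.75 TPM in controls), while the other 5 genes overlap.

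Icosl, the costimulatory ligand gene, showed the clearest separation. It lay between 6.33 and 7.46 TPM with α-asarone (median 7.02) and between 8.75 and 9.88 TPM in controls (median 9.13). Every α-asarone library was thus below every control, a pattern that 14.3% of the tested genes showed in one direction or the other. The log2 fold change was −0.41 ± 0.07 (SE), with a 95% interval from −0.56 to −0.27, which is 1.33-fold lower with α-asarone. Icosl was also among the least variable of the 7 within a group, with a coefficient of variation in TPM of 5.77% with α-asarone and 4.65% in controls. The gene (ENSMUSG00000000732) lies on chromosome 10 from 78069302 to 78083913 on GRCm38, with no other annotated gene over it.

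Of 36 costimulatory and coinhibitory genes listed, 2 were in the table, Icosl, which was chosen with this comparison known, and 1 other. Both were called lower with α-asarone, as were 17.4% of all tested genes. The other was Lgals9, which encodes galectin 9, a lectin that binds the T cell inhibitory receptor TIM-3. It averaged 199 ± 5.19 TPM in the control group and fell to 167 ± 11.7 in the α-asarone group (SD, n = 6 each), a log2 fold change of −0.24 ± 0.04 (SE, edgeR adjusted p = 2.17e-06). The median log2 fold change of these 2 genes, the chosen Icosl included, was −0.33. The CD28 and CD40 family genes and Icos itself were not analysed here. The 1 listed antigen presentation gene in the table, Calr, an endoplasmic reticulum chaperone gene, was also lower, by a log2 fold change of −0.09 (edgeR adjusted p = 0.0060), a call that ended with library sizes taken from table totals (log2 fold change −0.05).

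Il7r, the receptor gene, was the 1 member that was higher with α-asarone. Its level ran from 1.70 to 3.47 TPM with α-asarone (median 2.56) and from 1.11 to 2.30 TPM in controls (median 1.34). Of the 6 α-asarone libraries 4 lay above the highest control, and the other 2, at 1.70 and 1.92 TPM, lay among the controls. The counts behind these values were 52 to 123 with α-asarone and 38 to 76 in controls. On the log2 scale the fold change was 0.75 ± 0.18 (SE), with a 95% interval from 0.39 to 1.12, a 1.69-fold higher level. In absolute size this was the 12th of 512 fold changes, a rank from which nothing is read, since Il7r was chosen with this comparison known. Il7r (ENSMUSG00000003882) lies on chromosome 15 from 9505788 to 9530176.

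**Figure D3:**
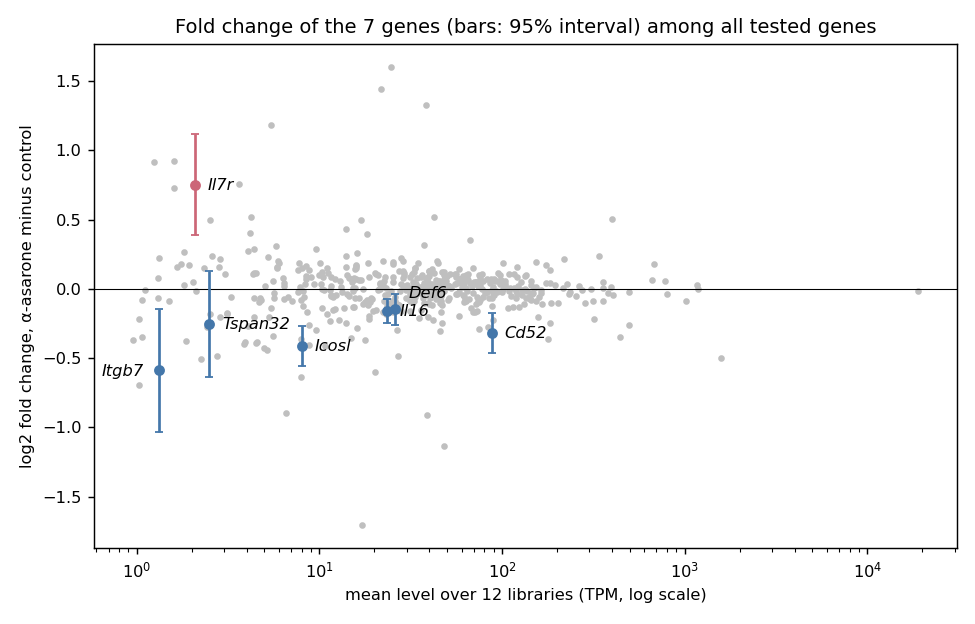
Log2 fold change (α-asarone minus control, edgeR) against the mean level in TPM on a log axis for the 512 tested genes in grey, with the 7 genes in colour and bars for their 95% intervals. Il7r lies above 0 at 0.75, the other 6 genes lie below 0, and the interval of Tspan32 crosses it.

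The other genes of interleukin 7 and TSLP signalling in the table did not pass the test. Of 25 listed, 3 were in the table, Il7r, Stat3 and Tcf7. Stat3, a transcription factor gene of cytokine signalling, had 137 ± 4.84 TPM in the α-asarone group against 142 ± 3.08 in the control group (SD, n = 6 each) (log2 fold change −0.06, edgeR adjusted p = 0.073). It passed without control replicate 2, at a log2 fold change of −0.07. Tcf7, whose levels are given above, had a log2 fold change of −0.14 ± 0.12 (SE). Il7, Tslp, Crlf2, Il2rg, Jak1 and Jak3 were not analysed here.

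Il16, the cytokine precursor gene, was lower with α-asarone by an amount that depended on whether counts or TPM were read. Its TPM ran from 20.0 to 22.2 with α-asarone (median 20.6) and from 20.6 to 35.5 in controls (median 25.3). Of the controls 5 lay above every α-asarone library, and control replicate 1, at 20.6 TPM, lay among them. The estimated counts, which enter edgeR, gave a log2 fold change of −0.16 ± 0.04 (SE; 95% interval −0.25 to −0.07), whereas limma on log2(TPM + 1) gave −0.30. In the plot of TPM against depth-scaled counts, control replicate 4 stands at 35.5 TPM, with a scaled count of 788 that is within the 653 to 795 of the controls. Il16 (ENSMUSG00000001741) spans chromosome 7 from 83642825 to 83745726 on the minus strand. Its counts were not whole in 10 of 12 libraries, and Stard5, 2310044K18Rik and the pseudogene Phgdh-ps1 overlap it. The value is therefore less certain than that of Icosl.

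Of 53 cytokine and receptor genes listed, 4 were in the table and 3 were tested, with 1 higher and 2 lower. Besides Il16, Il17ra, which encodes an interleukin 17 receptor chain, was lower, at 23.2 ± 1.21 against 25.04 ± 0.369 TPM in controls (−0.11 ± 0.03 SE on the log2 scale, edgeR adjusted p = 0.0089). The call of Il17ra ended with table totals (−0.07) and with limma on log2(TPM + 1) and on log2(TPM + 0.1). Tgfb1, which encodes a cytokine that restrains lymphocytes, was higher, at 183 ± 6.11 against 164 ± 3.24 TPM, a difference of 0.17 ± 0.03 (SE) on the log2 scale (edgeR adjusted p = 1.36e-05). The 3 tested genes thus went in both directions, with a median log2 fold change of −0.11, the value of Il17ra. Il16 was chosen with this comparison known, and 12.9% of all tested genes were called higher and 17.4% lower. These 3 genes do not stand for the 53 listed.

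Cd52, the surface glycoprotein gene, also separated the groups, though narrowly. It lay between 65.7 and 86.4 TPM with α-asarone (median 78.5) and between 86.5 and 119 TPM in controls (median 95.4). The highest α-asarone library and the lowest control were almost equal, at 86.36 and 86.49 TPM. The log2 fold change was −0.32 ± 0.07 (SE), with a 95% interval from −0.46 to −0.18, which is 1.25-fold lower with α-asarone. Cd52 (ENSMUSG00000000682, chromosome 4, 134082448 to 134095082) overlaps Crybg2 on the opposite strand, and whether the counts kept strand is not given in the sources used here.

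Cd52 belongs to the list of monocyte and macrophage genes, whose other genes went in both directions. Of those 6, all tested, 3 were higher and 1 lower with α-asarone, and 2 did not pass. Over all tested genes 12.9% were called higher and 17.4% lower. Cfp, which encodes properdin, averaged 332 ± 23.1 TPM in the control group and 469 ± 45.6 in the α-asarone group, a rise of 0.51 ± 0.04 (SE) on the log2 scale (edgeR adjusted p = 1.52e-10). Cd36, a scavenger receptor gene, rose by 0.24 on the log2 scale, and Spi1, the PU.1 gene, by 0.19. Itgb2 fell by 0.10 on the log2 scale, a call that ended with table totals (−0.06). Clec10a and the lipid carrier gene Apoe did not pass, at log2 fold changes of 0.11 and −0.02. Clec10a passed with no filter, with table totals, with the replicate number as a block, and without control replicate 5 (0.13) or α-asarone replicate 4 (0.14).

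Summed without Cd52 and Apoe, the 5 remaining monocyte and macrophage genes reached 1339 to 1463 TPM with α-asarone and 1148 to 1205 TPM in controls. The largest differences among them were those of Cfp (mean 469 TPM with α-asarone, 332 in controls) and Cd36 (366 and 308). Itgb2 went the other way (273 and 293), so this sum does not stand for the list as a whole. With Apoe, which dominates the sum, the ranges overlapped, at 18873 to 21134 and 18543 to 21192 TPM. The 7 lymphoid-associated genes summed to 120 to 148 TPM with α-asarone and 151 to 186 TPM in controls, a sum that is mostly Cd52. The part of monocyte and macrophage abundance in the differences of the 7 genes was not tested.

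Itgb7, an integrin chain gene, was lower in counts, which were few in every library. It had 12 to 20 estimated counts with α-asarone and 18 to 31 in controls. Divided by library depth these were 15.2 ± 1.81 and 23.3 ± 5.91 counts (SD, n = 6 each), with 5 of 6 α-asarone libraries below the lowest control. The log2 fold change was −0.59 ± 0.22 (SE; 95% interval −1.03 to −0.15). In TPM the groups overlapped broadly, from 0.579 to 2.73 with α-asarone (median 0.945) and from 0.822 to 2.14 in controls (median 1.42). With limma on log2(TPM + 1) and log2(TPM + 0.1) the log2 fold changes were −0.19 and −0.36, and the gene did not pass. Nor did it pass without control replicate 1 (−0.49), 2 (−0.52) or 3 (−0.58), or without α-asarone replicate 2 (−0.53), 3 (−0.56) or 4 (−0.58).

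Tspan32, the tetraspanin gene, was the 1 member that did not pass. It lay between 0.967 and 2.96 TPM with α-asarone (median 2.44) and between 2.21 and 3.86 TPM in controls (median 2.54). The lowest value, in α-asarone replicate 4, rested on 13 counts, and the highest, in control replicate 6, on 57. The log2 fold change was −0.25 ± 0.19 (SE), with a 95% interval from −0.64 to 0.13, which includes both no difference and a fall as large as that of Icosl. Tspan32 (ENSMUSG00000000244, chromosome 7, 143005046 to 143019644) overlaps Tspan32os on the opposite strand.

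Of 38 leukocyte integrin and homing genes listed, 7 were in the table and 4 were tested. Itgb7, chosen with this comparison known, and Itgb2 were lower and none was higher with edgeR. Of all tested genes 17.4% were called lower and 12.9% higher. Under the 22 alternatives the number of this list called lower was 1 or 2, and it changed in 11 of them. Besides Tspan32, Icam2, an endothelial and leukocyte ligand of integrins, did not pass, with 0.702 ± 0.598 TPM in the α-asarone group against 1.21 ± 0.715 in the control group (SD, n = 6 each). The integrin α chains Itga4 and Itgae, the partners of Itgb7, were not analysed here.

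Def6, the signalling gene, was lower by a small amount. Its level ran from 21.4 to 30.5 TPM with α-asarone (median 23.6) and from 24.7 to 31.5 TPM in controls (median 26.8). Of the α-asarone libraries 4 lay below the lowest control, and α-asarone replicates 1 and 4, at 27.6 and 30.5 TPM, lay among the controls. The log2 fold change was −0.15 ± 0.05 (SE; 95% interval −0.26 to −0.04), which is 1.11-fold lower. The call did not hold without control replicate 3 (−0.14), 4 (−0.15) or 6 (−0.12), nor without α-asarone replicate 2 (−0.13), 3 (−0.12), 5 (−0.13) or 6 (−0.15). It also ended with table totals (−0.10) and with limma on log2(TPM + 1) (−0.13). Def6 (ENSMUSG00000002257, chromosome 17, 28207778 to 28228608) overlaps AC126937.1 on the opposite strand.

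Among 49 listed genes of antigen receptor signalling and its GTPases, 5 were in the table and 4 tested. Def6, chosen with this comparison known, was the 1 that passed with edgeR, as did 30.3% of all tested genes. Rac1, the GTPase gene, was at 399 ± 7.22 TPM against 414 ± 8.84 TPM in controls (log2 fold change −0.05), with counts not whole in all 12 libraries. Lcp2, which encodes the adaptor SLP-76, was at 77.4 ± 3.62 against 74.2 ± 3.02 TPM (log2 fold change 0.08, edgeR adjusted p = 0.065). Lcp2 passed under 7 alternatives, among them the replicate number as a block, and without control replicate 3 (0.10) or α-asarone replicate 6 (0.11). Vav1, Rac2 and Zap70 were not analysed here.

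The remaining lists stand as context for the culture. Of 14 osteoclast genes 2 were tested, with Acp5 (log2 fold change −1.14) lower and Tcirg1 (0.13) higher. Of 17 dendritic cell genes 2 were tested, and the aspartic protease gene Napsa was lower (−0.44) while Clec10a did not pass. Of 22 neutrophil and mast cell genes 2 were in the table, Slfn4 and Cpa3, and neither passed the filter on low levels. None of 15 listed erythroid and megakaryocyte genes was analysed. Of 13 endothelial genes Ramp2 was tested and higher (1.60). Of 25 stromal and osteoblast genes 4 were tested, Col6a1 higher (0.18), Col1a1 lower (−0.50), and Timp1 (−0.04) and Dlx3 (0.27) not passing with edgeR.

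The disagreement between counts and TPM for Il16 and Itgb7 can be measured. A TPM is a count divided by transcript length and by depth, so the ratio of count to TPM, after the depth of each library is taken out, gives the mean length of the transcripts to which the reads were assigned. It is expressed here as a percentage of the highest of the 12 libraries. For Cd52 and Il7r it stayed at 99.9% to 100% in every library and for Icosl at 97.4% to 100%. For Def6 it went down to 87.0% and for Tspan32 to 86.6%.

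Itgb7 varied most. Its reads were assigned at full length in 6 libraries, α-asarone replicates 1, 3 and 6 and control replicates 1, 2 and 6. In the other 6 the implied length was 38.6%, 54.1% and 26.9% (α-asarone replicates 2, 4 and 5) and 47.0%, 46.2% and 55.7% (control replicates 3, 4 and 5). So 17 counts in α-asarone replicate 5 became 2.73 TPM, while 31 counts in control replicate 1 became 1.32 TPM. GENCODE M21 lists 5 Itgb7 transcripts, 1 of 2683 bases in 15 exons and 4 of 358 to 455 bases. The SD of the log2 implied length over the 12 libraries was 0.68 for Itgb7, above 99.4% of the 516 genes with at least 10 counts in every library, whose median was 0.018. Short and full-length libraries occurred in both groups.

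Il16 varied less and less evenly. Its implied length was 66.95% in control replicate 4, the library with 35.5 TPM, and 88.3% to 95.7% in the other controls. With α-asarone it was 94.3% to 100%. The SD of the log2 length was 0.15, above 93.4% of those genes. The annotated Il16 transcripts range from 348 to 5260 bases, the longest in 19 exons, so that a shift of some reads to a shorter one raises the TPM at an equal count. Neither the lengths nor their difference between groups was tested, and the files do not give levels per transcript.

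**Figure D4:**
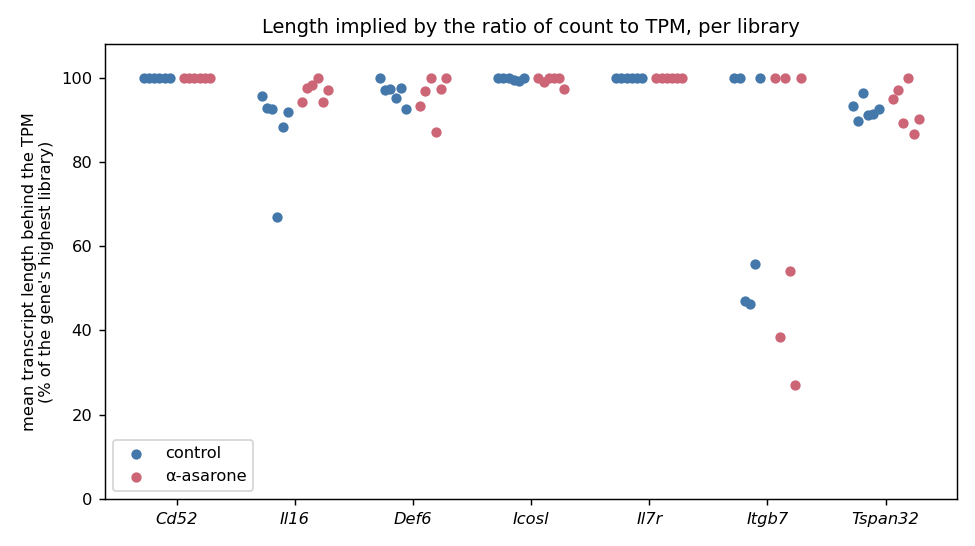
Mean transcript length implied by the ratio of count to TPM, in percent of the highest library of each gene, for 6 control and 6 α-asarone libraries. Cd52, Il7r and Icosl are flat, Itgb7 falls to 26.9% in 1 α-asarone library, and Il16 falls to 66.95% in 1 control.

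**Figure D5:**
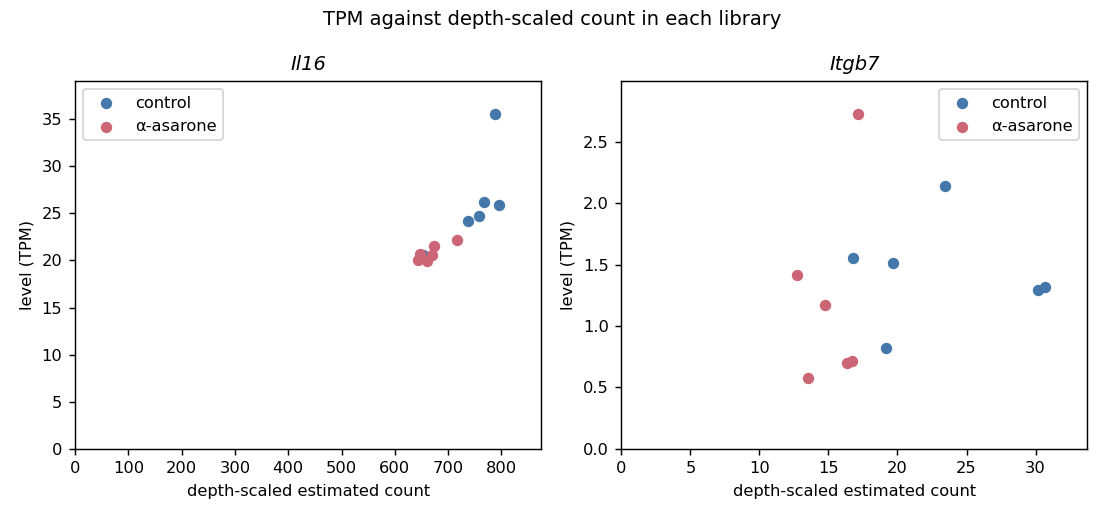
TPM against the estimated count divided by library depth for Il16 and Itgb7, 1 point per library. In Il16 control replicate 4 rises to 35.5 TPM at a scaled count of 788, and in Itgb7 the highest TPM (2.73) belongs to a library with a scaled count of 17.1.

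Within groups the 7 genes did not vary as a block. Pearson's r of log2(TPM + 1), with each group's mean taken off, was computed for the 21 pairs over the 12 libraries, which share depth and handling. It is a description with no test. The median was 0.084, from −0.57 for Cd52 with Tspan32 to 0.63 for Il16 with Il7r, and over all 130816 pairs of tested genes the median was 0.030, with 5% of pairs below −0.51 and 5% above 0.56. Il16 and Il7r, the pair of highest r, moved in opposite directions between the groups. Control replicate 4 had the highest control TPM of both, 35.5 for Il16 and 2.30 for Il7r, with an implied Il16 length of 66.95%. The part of that library in this r was not tested. Icosl with Tspan32 (0.61) was the other pair above 0.56.

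For each member, the 3 tested genes with the highest within-group r were taken as those most like it. For Il7r they were Dgcr2 (r = 0.90), the tubulin gene Tubb5 (0.80) and the lipid droplet gene Plin4 (0.77). For Def6 they were Sec24b (0.88), Daxx (0.75) and Nfat5 (0.74), for Tspan32 Spag5 (0.80), Tmem39a (0.79) and Insig2 (0.71), and for Cd52 Ift20 (0.78), Car11 (0.77) and Rarg (0.70). Il16 was nearest to Ap4e1 (0.76), Relb (0.72), an NF-κB subunit gene, and Prkar2b (0.72). Icosl was nearest to Mfsd10 (0.73), Dbt (0.72) and Wnt9a (0.71), and Itgb7 to Kmt2a (0.78), Zfp40 (0.72) and the interferon-induced gene Mx1 (0.71). The coefficient of variation of Itgb7 with α-asarone was 66.0% in TPM and 11.9% in depth-scaled counts. In controls it was 29.9% and 25.4%. The r values of Itgb7, taken from TPM, thus include its variation in implied length, whose part was not tested. No r over 12 libraries singles out a gene among 511 others, and no other member was among the nearest 3 of any member.

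The gene annotation that the authors deposited gives the terms that members share. Of the 7 genes 6 carry the term plasma membrane, which 177 of the 658 genes carry. Icosl and Itgb7 share the KEGG map of the intestinal immune network for IgA production, held by 4 genes of the table, and Il16 and Il7r share cytokine-cytokine receptor interaction, held by 14. Il7r and Itgb7 share the PI3K-Akt signaling pathway, held by 26, and Tspan32 and Itgb7 share integrin-mediated signaling, held by 6. No KEGG map is given there for Cd52, Def6 or Tspan32.

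Total estimated counts over the 658 genes ran from 843595 to 1224256 per library, and these are totals of a part of the transcriptome, since these genes hold 5.36% to 5.67% of all TPM. At this depth the SE of a log2 fold change was 0.04 for Il16, with means of 668 and 761 counts, and 0.22 for Itgb7, with means of 15.2 and 23.3 counts with α-asarone and in controls. With library sizes from table totals in place of TMM factors, 127 genes were called higher and 62 lower, against 66 and 89, so 67.2% of calls were rises in place of 42.6%. The median of all genes then shifted by 0.043 on the log2 scale. Cd52, Il16, Icosl and Itgb7 were called lower and Il7r higher under that scaling as well.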

How the data were processed

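Poly(A) RNA of 12 BMSC libraries was sequenced, 6 with α-asarone and 6 controls. The table deposited by the authors pairs the TPM of a gene with its estimated count in each library, per the file headers, which record no further step. The submitters' processing notes name GRCm38 and mm10, and no aligner or quantifier is named in the sources used here. Between 7.45% and 9.57% of the estimated counts of a library are not whole. All 658 identifiers matched GENCODE M21 (GRCm38), the source of coordinates.

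Estimated counts were rounded and tested with edgeR 4.0.16 in R 4.3.3 (quasi-likelihood, TMM factors 0.976 to 1.03, no covariate) over the 512 genes with 1 TPM or more in at least 6 libraries, with calls at 0.05 after Benjamini-Hochberg adjustment. SEs were derived from that fit as the absolute log2 fold change divided by the square root of its F statistic. The 95% intervals use these SEs and the t distribution, so both are approximate. The fit was tested on simulated data. Library depth for scaled counts (0.796 to 1.2 of the mean) is the median ratio of count to TPM over 471 genes with 50 or more counts in every library.

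The members and lists were chosen with earlier results of these data known. Named are the members, the 3 reference genes, for each of 15 lists up to 4 called genes of largest change and 2 uncalled of highest TPM, and the 3 nearest genes of each member. Alternatives were filters, scalings, DESeq2 1.42.0, limma 3.58.1, a replicate block and each library left out. Replicates differed beyond counting noise (chi-square per degree of freedom 2.24 to 11.2 in 30 pairs), so none was counted as a copy of another library. This does not tell whether they come from separate animals or cultures.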

Additional observations from a re-analysis of the deposited data

Results flagged for a closer look

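In each of 62 groups of 6 libraries (the TPM of 30 named genes and the total counts), the gap from the highest or lowest value to its neighbour was set against Dixon's critical value of 0.625 of the range. Chance alone passes about 5% of groups, and 2 passed. In the control group Tspan32 stood at 3.86 TPM in replicate 6 and at 2.21 to 2.71 TPM in the remaining 5. Without that library its log2 fold change was −0.13 in place of −0.25, and it did not pass with edgeR in either case. The smallest control library, replicate 2, held 843595 estimated counts, against 1068547 to 1173845 in the remaining 5. Without it 151 genes were called, and Cd52, whose highest value of 119 TPM is in that library, had a log2 fold change of −0.27.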

How the results depend on the processing

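Cd52, Il16, Il7r and Icosl kept their direction and their call under every alternative that tested them, and Tspan32 was called under none. Their log2 fold changes ran from −0.35 to −0.27, from −0.31 to −0.12, from 0.48 to 0.91, from −0.44 to −0.37 and, for Tspan32, from −0.32 to −0.12. Among genes with whole counts Il16 could not be fitted. Def6 did not pass with table totals (−0.10), limma on log2(TPM + 1) (−0.13) or on log2(TPM + 0.1) (−0.14), and ran from −0.18 to −0.12 with each library left out. Itgb7 did not pass without the filter (−0.59), with DESeq2 (−0.59) or with limma on log2(TPM + 1) (−0.19) and on log2(TPM + 0.1) (−0.36), and ran from −0.67 to −0.49 with each library left out. The cause was not tested for either gene. Members called numbered 4 to 6. The log2 ratio of mean levels of Il16 was −0.33 in TPM and −0.12 in counts scaled to the table total. Over all genes 116 to 189 were called against 155, with 127 higher under table totals against 66. Of 496 values for the 23 other named genes 478 kept their call, 5 lost one and 13 gained one. The deviations of same-numbered libraries correlated at −0.0031 to 0.13, and the best match of a library was its own number in 2 of 6 cases. These values cannot settle whether the numbers pair the libraries. With a replicate block 168 genes were called against 155, and the same 6 members passed. The median within-group r ran from −0.11 to 0.13 with each library left out, and was 0.076 on scaled counts, a setting chosen after seeing the data. Itgb7 and Tspan32 rest on few counts, 12 to 57 a library.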
